A study of Mus musculus with 20 samples.

Results

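Matrix metalloproteinases (Mmp), their tissue inhibitors (Timp), the ADAMTS proteases (Adamts) and the ADAMTS-like proteins (Adamtsl) were followed by bulk RNA sequencing in brain tissue of mice in the chronic phase after stroke. The members were all protein-coding genes of the GRCm38 annotation whose symbol begins with Mmp, Timp, Adamts or Adamtsl and a number. They came to 50 of the 46078 genes in the count tables. Of these 50 genes, 39 reached 10 counts in at least 5 libraries, as did 16857 of all genes. The 39 comprised 14 of 22 Mmp, 4 of 4 Timp, 16 of 19 Adamts and 5 of 5 Adamtsl genes.

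All mice were male wild type C57BL/6J animals aged 18 months, and all underwent DH stroke, in which the distal middle cerebral artery is occluded and the animal is then kept in hypoxia. From 1 week after stroke they were injected subcutaneously 3 times per week for 6 weeks with vehicle (PBS) or with HPBCD at 4 g/kg. HPBCD is hydroxypropyl-β-cyclodextrin, a ring of sugars that takes up cholesterol. Tissue was taken at 7 weeks, from the peri-infarct region after the infarct itself had been removed and from the matching contralateral region. This gave 4 groups of 5 libraries, vehicle contralateral, vehicle peri-infarct, HPBCD contralateral and HPBCD peri-infarct, and there was no group without stroke. The labels do not tie the 2 libraries of an animal together, but same-number libraries of the 2 regions share an identifier in the names of their count tables, taken here as the animal. No gene in these libraries checks the treatment labels independently, so HPBCD and vehicle below mean the libraries labelled as such. Were the treatment labels of the animals exchanged, every HPBCD-against-vehicle difference and every interaction would change sign, and the region results given for each treatment would be those of the other. Were they exchanged in the peri-infarct groups alone, the differences between those groups would change sign and each region comparison would rest on the other treatment's peri-infarct libraries, so the region counts and the interaction rest on these labels too.

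Matrix metalloproteinases are zinc enzymes that are made as inactive precursors and cut collagens, laminins, proteoglycans and signalling proteins outside the cell or at its surface. TIMPs bind the active site of these enzymes and block it. ADAMTS proteases cut the large proteoglycans that fill the space between brain cells or trim procollagens, whereas ADAMTS-like proteins lack the protease domain and bind the matrix. In the injured brain these families are known for opening the blood-brain barrier early and for remodelling the scar later.

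Gene counts per library ranged from 14445021 to 22171627 (median 19008532), and a floor of 3 counts corresponded to 0.1353 to 0.2077 CPM, the unit of all levels below, which scales counts to library size with TMM factors. Neuronal and oligodendrocyte markers were abundant in every library, as brain tissue would give. Some libraries stood apart. Vehicle contralateral library 1 held 2060 CPM of 6 markers of striatal neurons, against 123 to 192 CPM in the other contralateral libraries of both treatments. HPBCD contralateral library 3 held 639 CPM of 6 choroid plexus markers, against 1.86 to 15.7 CPM in the other contralateral libraries. HPBCD peri-infarct library 3 held 687 CPM of the choroid plexus markers, against 27.1 to 207 CPM in the other libraries of its group. HPBCD contralateral library 4 had the fewest gene counts, 9.503% of reads without a feature and 8.03% ambiguous, against 4.39% to 5.858% and 3.941% to 4.162% in the other 19 libraries. Results that rest on these libraries are given with and without them. Floors cover counting error only, and p-values rest on the spread between the 5 libraries of a group, which carry 5 different identifiers. The 10 libraries of a region comparison then come from 5 animals, which the test takes into account only where the animal is named as a block. In bulk tissue, fewer cells of a type and less RNA per cell cannot be told apart.

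The start sites of the members divided into sets by sequence. Mmp1b, Mmp3, Mmp7, Mmp8, Mmp10, Mmp12, Mmp13, Mmp20 and Mmp27 lie side by side on chromosome 9, between bases 7272514 and 7699585 of GRCm38. RefSeq promoter windows of 300 bases on GRCm38.p6 (250 before to 50 after a start) were at hand for 35 of the 50 members, 38 windows in all. They were not at hand for Mmp2, Mmp9, Mmp16, Mmp17, Mmp19, Adamts4, Adamts5, Adamts6, Adamts7, Adamts8, Adamts10, Adamts15, Adamts16, Adamts19 and Adamtsl1. Each window was searched on both strands for the AP-1 motif TGANTCA, the TATA box TATAAA and the GC box GGGCGG, which do not overlap one another in the stretches shown here. AP-1 is a factor known for activating collagenase and stromelysin genes.

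The AP-1 letters were present at 7 of the 9 members of the chromosome 9 cluster and at 0 of the other 26 members. The TATA letters were present at 8 of the 9 and at 3 of the 26 (Mmp21, Adamts1 and Adamtsl2). The GC box was present at 0 of the 9 and at 22 of the 26. Of the 32851 windows of all mouse genes, 7.81% held the AP-1 letters, 13.6% the TATA letters and 35.7% the GC box. A match is a description of the letters and shows neither binding nor a cause.

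The stretches of 150 bases before the start are shown for the cluster members with the most RNA in peri-infarct tissue (Mmp13, Mmp12 and Mmp3), for Mmp10, a cluster member at or near 0, and for Mmp14 and Timp1, which lie elsewhere. All read 5′ to 3′ on the plus strand, and capitals mark the motifs. The first 4 carry the AP-1 letters, and Mmp13, Mmp3 and Mmp10 also the TATA letters. The last pair carry only GC boxes, 2 that adjoin in Mmp14 and 1 in Timp1, read there on the minus strand. The Mmp12 stretch precedes the second of its 2 listed starts, which lies inside the longer gene model. Its TATA letters begin at base 5 after that start and are not shown.
Mmp13, chr9:7272364-7272513: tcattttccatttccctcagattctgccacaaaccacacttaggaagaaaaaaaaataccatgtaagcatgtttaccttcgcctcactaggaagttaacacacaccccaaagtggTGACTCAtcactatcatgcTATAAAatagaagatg
Mmp12, chr9:7347224-7347373: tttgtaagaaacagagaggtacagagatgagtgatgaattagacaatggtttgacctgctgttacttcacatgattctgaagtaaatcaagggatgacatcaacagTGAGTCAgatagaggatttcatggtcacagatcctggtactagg
Mmp3, chr9:7445672-7445821: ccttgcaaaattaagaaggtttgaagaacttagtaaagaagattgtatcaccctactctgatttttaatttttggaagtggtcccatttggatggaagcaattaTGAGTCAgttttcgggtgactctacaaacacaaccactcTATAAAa
Mmp10, chr9:7502192-7502341: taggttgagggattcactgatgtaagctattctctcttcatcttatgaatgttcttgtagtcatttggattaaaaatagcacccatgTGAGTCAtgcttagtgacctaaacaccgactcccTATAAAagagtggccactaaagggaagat
Mmp14, chr14:54431448-54431597: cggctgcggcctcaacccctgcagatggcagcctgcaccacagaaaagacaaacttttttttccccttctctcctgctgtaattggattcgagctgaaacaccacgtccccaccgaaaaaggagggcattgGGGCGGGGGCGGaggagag
Timp1, chrX:20870016-20870165: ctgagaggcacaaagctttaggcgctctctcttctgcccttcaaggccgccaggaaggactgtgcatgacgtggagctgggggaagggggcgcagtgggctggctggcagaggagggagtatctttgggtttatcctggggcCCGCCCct
The AP-1 letters began 35 bases before the start in Mmp13, 44 bases before it in Mmp12, 46 bases before it in Mmp3 and 63 bases before it in Mmp10.

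Groups were compared in 4 ways, with 1 interaction. Peri-infarct against contralateral tissue, within each treatment, asked which members differ at the border of the old infarct. HPBCD against vehicle, within each region, asked what the drug labels separate. The interaction asked whether the difference between regions itself differs between treatments. A member is called here when its edgeR quasi-likelihood test, adjusted over all genes tested, gives a p under 0.05. Log2 fold changes are printed with their standard error (SE).

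In vehicle mice, 10 of the 34 members tested were higher in peri-infarct than in contralateral tissue and 0 were lower. Of all 15801 genes tested, 20.2% were called, 10.5% higher and 9.7% lower. The called members were Timp1, Timp2, Timp3, Mmp2, Mmp14, Mmp19, Adamts2, Adamts9, Adamtsl1 and Adamtsl3. Their log2 fold changes ran from 0.52 (Timp3) to 2.76 (Timp1), and the median over the 34 members was 0.34, against 0.01 over all genes. In 5 of the 34 the groups did not overlap, beside 13.4% of all genes (6.72% higher and 6.7% lower), and all 5 were higher. At an unadjusted p under 0.05 there were 13 members, beside 34.4% of all genes. Without vehicle contralateral library 1, the library with striatal markers, 11 of 35 members were called, beside 19.2% of all genes.

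In HPBCD mice, 25 of 37 members were higher in peri-infarct tissue and 4 were lower. This stood beside 54.6% of all 16047 genes called, 30.3% higher and 24.3% lower. The median log2 fold change of the members was 1.18, against 0.03 over all genes, and 26 of the 37 did not overlap between regions, beside 42.5% of all genes. Of these, 22 were higher (24.3% of all genes) and 4 lower (18.3%). At an unadjusted p under 0.05 there were 30 members, beside 59.6% of all genes. The 4 lower members were Mmp17, Adamts8, Adamts17 and Adamtsl2. Without HPBCD contralateral library 3, the library with choroid plexus markers, 25 of 39 members tested were called higher and 4 lower, beside 51.4% of all genes. Those were not all the same members, since the calls of Mmp28 and Adamts10 ended there. Without HPBCD contralateral library 4, the library with the most reads outside single genes, 30 of 39 members were called, beside 50.9% of all genes.

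The 2 region comparisons share no library. Among 34 members tested in both, 10 were called in vehicle and 26 in HPBCD, and 10 were called in both, all 10 in the same direction. That overlap was 100% of the vehicle calls and 38.5% of the HPBCD calls. In 30 of the 34 the log2 fold change lay farther from 0 in HPBCD. The same counts over all genes were not made, but 54.6% of all genes were called in HPBCD and 20.2% in vehicle. Neither the overlap nor the larger differences in HPBCD can thus be taken as particular to the members.

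**Figure D1:**
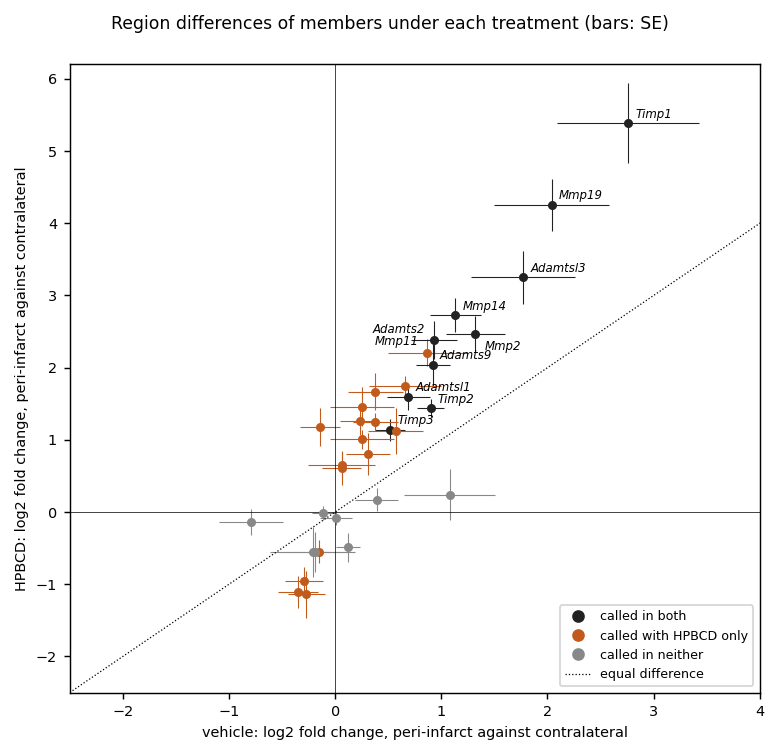
Log2 fold change (peri-infarct against contralateral) of the 34 members tested under both treatments, in vehicle (horizontal) and in HPBCD (vertical). Points are genes, bars are SE, and the dotted line marks equal differences. The 10 members called in both all lie above that line, with Timp1 (2.76 and 5.39) and Mmp19 (2.04 and 4.26) farthest from 0.

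Between the peri-infarct groups, 15 of 39 members were higher in HPBCD and 2, Mmp17 and Adamtsl2, were lower. Of all 16224 genes, 21.4% were called, 12.4% higher and 9.0% lower. The median over the members was 0.65, against 0.01 over all genes, and in 10 of the 39 the groups did not overlap, beside 13.4% of all genes. Of these, 9 were higher in HPBCD (7.46% of all genes) and 1 lower (5.98%). At an unadjusted p under 0.05 there were 28 members, beside 39.2% of all genes. The count of 17 rested on single libraries. It was 6 without HPBCD library 3, where 5.03% of all genes were called, and 8 without HPBCD library 4 (10.5% of all genes). It was 7 without vehicle library 1 (8.75%), 9 without vehicle library 2 (7.93%), 10 without vehicle library 5 (13.2%) and 23 without HPBCD library 2 (32.5%). The calls over all genes thus fell and rose with those of the members. With DESeq2 it was 26 of 48 members, 21 higher and 5 lower, beside 4719 of 28467 genes.

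In the contralateral groups, 0 of 33 members differed between treatments, as did 0.0% of all 15469 genes by edgeR. At an unadjusted p under 0.05 there were 3 members, beside 7.91% of all genes, and DESeq2 called 0 members and 49 genes in all. Groups that do not overlap were seen for 0 members, beside 1.51% of all genes (0.957% higher and 0.549% lower). The smallest adjusted p of a member was 0.555. The interaction was called for 8 of 39 members, all positive, beside 9.41% of all 16758 genes, 5.03% positive and 4.38% negative. At an unadjusted p under 0.05 it counted 24 members, beside 28.9% of all genes.

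**Figure D2:**
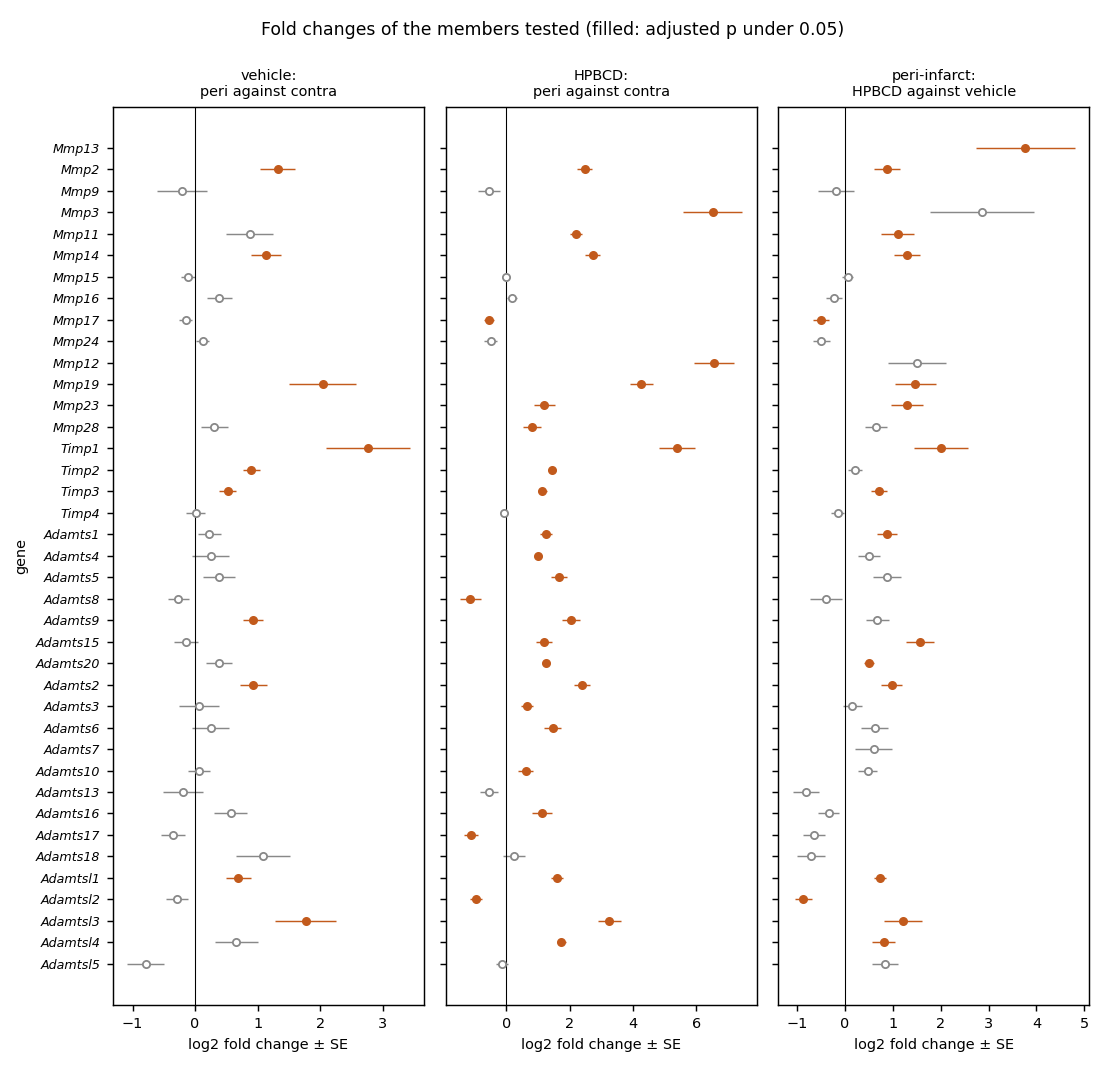
Log2 fold changes with SE (horizontal) of every member tested, by gene (vertical), in vehicle tissue, in HPBCD tissue and between the peri-infarct groups. Filled orange points are called, and the panels differ in scale. The HPBCD region panel holds 25 called genes right of 0 and 4 left of it, whereas the vehicle panel holds 10, all right of 0.

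The inhibitors were the most abundant family in peri-infarct tissue. Summed over the 4 genes, TIMP levels averaged 297 ± 42.2 CPM (SD, n = 5) in vehicle contralateral, 522 ± 56.7 in vehicle peri-infarct, 257 ± 28.6 in HPBCD contralateral and 641 ± 102 in HPBCD peri-infarct tissue. The sum over the 22 Mmp genes moved less, from 294 ± 22.1 to 311 ± 12.7 CPM in vehicle and from 283 ± 31.2 to 326 ± 19.3 CPM in HPBCD. These sums were dominated by single genes. Timp2 alone held 30.7%, 42.3%, 27.4% and 39.9% of all member CPM in the same 4 groups, and Mmp17 held 28.5%, 19.1%, 29.7% and 11.3%.

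Timp1, a secreted inhibitor of most soluble Mmp enzymes, had the largest fold changes among the inhibitors. Its levels in vehicle libraries 1 to 5 were 0.165, 0.981, 0.415, 0.435 and 0.0984 CPM contralaterally and 1.53, 0.564, 5.25, 5.18 and 1.87 CPM in peri-infarct tissue. In HPBCD they were 0.0998, 0.403, 0.552, 0 and 0.282 CPM contralaterally and 10.8, 3.34, 15, 19.4 and 9.86 CPM in peri-infarct tissue. The regions did not overlap in HPBCD, while in vehicle the lowest peri-infarct library lay below the highest contralateral one. Between regions, the log2 fold change was 2.76 ± 0.67 (SE, adjusted p = 0.0156) in vehicle (3.37 without vehicle contralateral library 2) and 5.39 ± 0.56 (SE, adjusted p = 5.98e-06) in HPBCD. HPBCD and vehicle peri-infarct tissue differed by 2.01 ± 0.56 (SE, adjusted p = 0.0303), and that call ended without vehicle peri-infarct library 1, 2 or 5 or HPBCD peri-infarct library 3, 4 or 5 (adjusted p up to 0.0744).

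Timp2, which inhibits Mmp enzymes and also helps Mmp14 to activate the Mmp2 precursor, was the most abundant member per length. Vehicle libraries held 199, 187, 225, 302 and 221 CPM contralaterally and 351, 394, 421, 480 and 495 CPM in peri-infarct tissue. HPBCD libraries held 177, 204, 203, 184 and 149 CPM contralaterally and 575, 365, 533, 552 and 461 CPM in peri-infarct tissue. In both treatments every peri-infarct library lay above every contralateral one. Its log2 fold change was 0.90 ± 0.13 (SE, adjusted p = 0.00227) in vehicle and 1.44 ± 0.13 (SE, adjusted p = 2.54e-06) in HPBCD. The peri-infarct groups overlapped, with a log2 difference of 0.21 ± 0.14 (SE, adjusted p = 0.272).

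Timp3, which stays bound to the matrix and inhibits ADAMTS as well as Mmp enzymes, was higher in peri-infarct tissue under both treatments. It stood at 45.2, 51.8, 42.4, 48.8 and 46.3 CPM in vehicle contralateral libraries and at 74.5, 53.1, 89.2, 67.1 and 54.9 CPM in vehicle peri-infarct libraries. The HPBCD values were 37.8, 54.9, 58.7, 56.1 and 44.4 CPM contralaterally and 93.1, 101, 136, 133 and 92.1 CPM in peri-infarct tissue. Neither region comparison overlapped, nor did the peri-infarct groups. The log2 fold changes were 0.52 ± 0.14 (SE, adjusted p = 0.021) in vehicle, 1.14 ± 0.15 (SE, adjusted p = 4.14e-05) in HPBCD and 0.71 ± 0.17 (SE, adjusted p = 0.0193) between the peri-infarct groups, where the call ended without HPBCD peri-infarct library 3 (adjusted p up to 0.0549). Of its 8144 exon bases, 1733 also lie in Syn3 on the other strand. Whether counting used the strand is not stated, so this gene's counts are uncertain.

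Timp4, the TIMP best known from heart and brain, was called in no comparison. It stood at 21.8, 27.5, 24.6, 18.4 and 24 CPM in vehicle contralateral libraries and at 24.5, 24.1, 30.1, 20.7 and 18.2 CPM in vehicle peri-infarct libraries. In HPBCD it stood at 19.5, 20.6, 23.3, 22.9 and 26.2 CPM contralaterally and at 21, 20, 24, 21.2 and 20.4 CPM in peri-infarct tissue. All 4 groups overlapped. Its log2 differences were 0.01 ± 0.15 (SE, adjusted p = 0.985) in vehicle, a value whose sign turned under RLE scaling, and -0.08 ± 0.10 (SE, adjusted p = 0.528) in HPBCD.

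**Figure D3:**
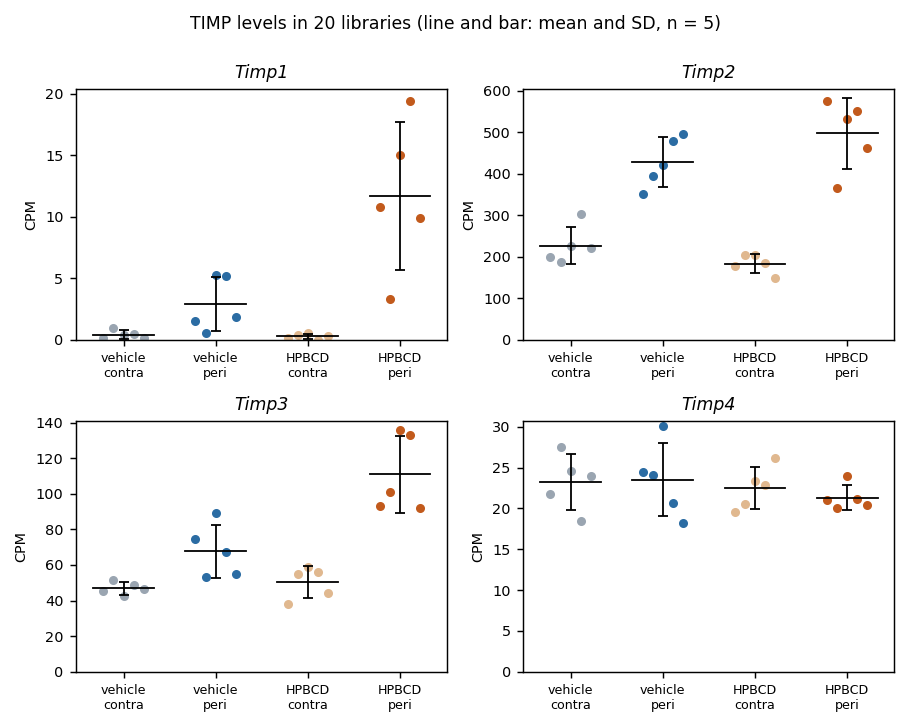
CPM (vertical, from 0) of the 4 TIMP genes in each library, by group (horizontal). Points are libraries, lines and bars are the mean and SD of 5 libraries. Timp2 rises from means of 227 and 183 CPM contralaterally to 428 and 497 CPM in peri-infarct tissue, and Timp4 means stay between 21.3 and 23.5 CPM.

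Gelatinases cut denatured collagen and the basement membrane. Mmp2 was higher in peri-infarct tissue under both treatments and Mmp9 was called in no comparison. Mmp2 stood at 2.31, 3.81, 1.72, 2.77 and 2.66 CPM in vehicle contralateral libraries and at 5.51, 4.05, 10.6, 7.87 and 5.5 CPM in vehicle peri-infarct libraries. HPBCD gave 1.95, 2.32, 2.69, 2.89 and 1.41 CPM contralaterally and 10.2, 8.11, 12.8, 18.4 and 12.8 CPM in peri-infarct tissue. The regions did not overlap under either treatment, but the peri-infarct groups did. The log2 fold changes of Mmp2 were 1.32 ± 0.28 (SE, adjusted p = 0.00884) in vehicle, 2.47 ± 0.24 (SE, adjusted p = 3.74e-06) in HPBCD and 0.88 ± 0.27 (SE, adjusted p = 0.04) between the peri-infarct groups. The last call ended without vehicle peri-infarct library 1, 2, 4 or 5 or HPBCD peri-infarct library 3, 4 or 5 (adjusted p up to 0.095). Mmp9 stayed near 1 CPM, with group means of 1.31 ± 0.722 (SD, n = 5), 1.15 ± 0.378, 1.49 ± 0.357 and 1.02 ± 0.514 CPM in the order vehicle contralateral, vehicle peri-infarct, HPBCD contralateral and HPBCD peri-infarct.

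Membrane-type enzymes are anchored at the cell surface, and of the 5 tested, Mmp14 rose and Mmp17 fell. Mmp14, a collagenase that also activates the Mmp2 precursor, stood at 10.3, 16.4, 13.6, 14.6 and 8.61 CPM in vehicle contralateral and 23.7, 19.8, 38.9, 37.7 and 20.1 CPM in vehicle peri-infarct libraries. Its HPBCD values were 11.5, 8.77, 13.6, 9.43 and 8.34 CPM contralaterally and 57.7, 46.9, 88.9, 103 and 47.8 CPM in peri-infarct tissue. No contralateral library reached any peri-infarct library, and every HPBCD peri-infarct library lay above every vehicle one. The log2 fold changes were 1.13 ± 0.24 (SE, adjusted p = 0.0087) in vehicle, 2.73 ± 0.24 (SE, adjusted p = 1.89e-06) in HPBCD and 1.29 ± 0.27 (SE, adjusted p = 0.0155) between the peri-infarct groups. All of these calls held without each library in turn.

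Mmp17, tethered to the membrane by a lipid anchor, was the most abundant Mmp gene in every group. Vehicle values were 223, 175, 206, 223 and 221 CPM contralaterally and 210, 208, 156, 184 and 198 CPM in peri-infarct tissue. In HPBCD the libraries held 202, 199, 179, 236 and 177 CPM contralaterally and 151, 174, 105, 97.2 and 149 CPM in peri-infarct tissue. Only the HPBCD regions did not overlap, and its lowest libraries were HPBCD peri-infarct 3 and 4. The log2 fold change was -0.15 ± 0.10 (SE, adjusted p = 0.309) in vehicle, not called, and -0.55 ± 0.16 (SE, adjusted p = 0.0126) in HPBCD. HPBCD against vehicle peri-infarct tissue gave -0.50 ± 0.16 (SE, adjusted p = 0.0488), a call that ended without vehicle peri-infarct library 1, 2, 4 or 5 or HPBCD peri-infarct library 1, 3, 4 or 5 (adjusted p up to 0.115). The neuron list fell with it in HPBCD, to 2280 to 4960 CPM in peri-infarct from 9560 to 10400 CPM in contralateral libraries, lowest in library 4. All 6 of these markers were called lower there, beside 24.3% of all genes. In vehicle, where Mmp17 was not called, the neuron list also stood lower in peri-infarct (4750 to 6780 CPM) than in contralateral libraries (7890 to 9650 CPM), with 3 of 6 markers called lower, beside 9.7% of all genes. Their part in the result was not tested.

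Of the other membrane-type genes, Mmp24, an enzyme of neurons, had a log2 difference of -0.49 ± 0.20 (SE, adjusted p = 0.0501) between regions in HPBCD, not called, but called with the animal as a block (adjusted p = 0.0437) and by DESeq2 (adjusted p = 0.0246). Mmp15 and Mmp16 were called in no comparison, with means of 19.3 ± 2.46 (SD, n = 5) and 16 ± 4.02 CPM in vehicle contralateral tissue. Mmp25 reached at most 14 counts in a library and did not pass the filter of edgeR.

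The chromosome 9 cluster held the called members with the largest fold changes in HPBCD (Mmp12 and Mmp3) and between the peri-infarct groups (Mmp13). Mmp3, or stromelysin-1, cuts proteoglycans and activates other Mmp precursors. Its counts were 0, 0, 1, 0 and 0 in vehicle contralateral and 0, 0, 13, 146 and 2 in vehicle peri-infarct libraries, present in too few libraries for the filter of that comparison. In HPBCD the CPM values were 0, 0, 0.62, 0 and 0.0564 contralaterally and 10.7, 1.06, 18.2, 20.4 and 7.23 in peri-infarct tissue. Vehicle peri-infarct library 4 alone held 6.88 CPM, whereas vehicle peri-infarct libraries 1 and 2 held 0 counts. In HPBCD the regions did not overlap, and the log2 fold change was 6.51 ± 0.94 (SE, adjusted p = 8.09e-05). Without HPBCD contralateral library 3 it was 9.11, a value fitted against a single contralateral count. Between the peri-infarct groups it was 2.86 ± 1.09 (SE, adjusted p = 0.0779), not called. With 10 counts in HPBCD contralateral tissue, 9 of them in library 3, the size of the region difference depends on the prior count.

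Mmp12, the macrophage metalloelastase, lies next to Mmp13. Vehicle libraries held 0.165, 0.0545, 0.415, 0 and 0 CPM contralaterally and 1.22, 0.461, 9.26, 6.12 and 3.59 CPM in peri-infarct tissue. HPBCD libraries held 0, 0.101, 0.552, 0 and 0 CPM contralaterally and 9.67, 5.57, 12.2, 20.6 and 11.1 CPM in peri-infarct tissue. In both treatments every peri-infarct library lay above every contralateral one, though the vehicle comparison did not pass the filter of edgeR. DESeq2, with no such filter, called it (adjusted p = 0.000162). The log2 fold change was 6.55 ± 0.62 (SE, adjusted p = 3.26e-06) in HPBCD (8.40 without HPBCD contralateral library 3) and 1.51 ± 0.60 (SE, adjusted p = 0.0879) between the peri-infarct groups, not called. Of its exon bases 157 are shared with Mmp1b on the other strand, which had 0 counts in all 20 libraries.

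Mmp13, or collagenase-3, which cuts fibrillar collagens, passed the filter of edgeR only between the peri-infarct groups and in the interaction. Its counts in vehicle were 0, 2, 5, 0 and 1 contralaterally and 1, 7, 1, 42 and 0 in peri-infarct tissue. Its CPM values in HPBCD were 0, 0, 0.207, 0 and 0 contralaterally and 4.29, 0.405, 10.4, 16.6 and 3.49 in peri-infarct tissue. The peri-infarct groups overlapped only because HPBCD library 2 (0.405 CPM) lay below vehicle library 4 (1.98 CPM). The log2 fold change between the peri-infarct groups was 3.77 ± 1.04 (SE, adjusted p = 0.0293), the largest of any called member there, and it was 5.83 without vehicle peri-infarct library 4. That call ended without vehicle peri-infarct library 1, 2 or 5 or HPBCD peri-infarct library 3 or 4 (adjusted p up to 0.0706). Between regions in HPBCD the groups did not overlap and DESeq2 called the gene (adjusted p = 8.43e-07).

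Mmp8, the collagenase first known from neutrophils, did not reach 10 counts in 5 libraries and did not pass the filter of edgeR. DESeq2 called it higher between regions in HPBCD (adjusted p = 0.0112) and between the peri-infarct groups (adjusted p = 0.0142), where the groups overlapped in both. Its counts in vehicle were 0, 0, 2, 4 and 0 contralaterally and 0, 1, 4, 4 and 1 in peri-infarct tissue. In HPBCD they were 0, 5, 3, 0 and 0 contralaterally and 3, 12, 31, 32 and 1 in peri-infarct tissue, highest in libraries 3 and 4. The summed level of 8 neutrophil markers was 1.77, 16.5, 5.33, 36 and 1.96 CPM in the same HPBCD peri-infarct libraries and 0.204 to 5.98 CPM in vehicle peri-infarct libraries, and the defining marker Ly6g was at 0 in all HPBCD libraries. HPBCD peri-infarct library 4 was highest in both. Mmp10, Mmp20 and Mmp27 reached at most 3 counts in a library, and Mmp7 and Mmp1b were at 0 counts in all 20 libraries, under the floor of 0.1353 to 0.2077 CPM.

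**Figure D4:**
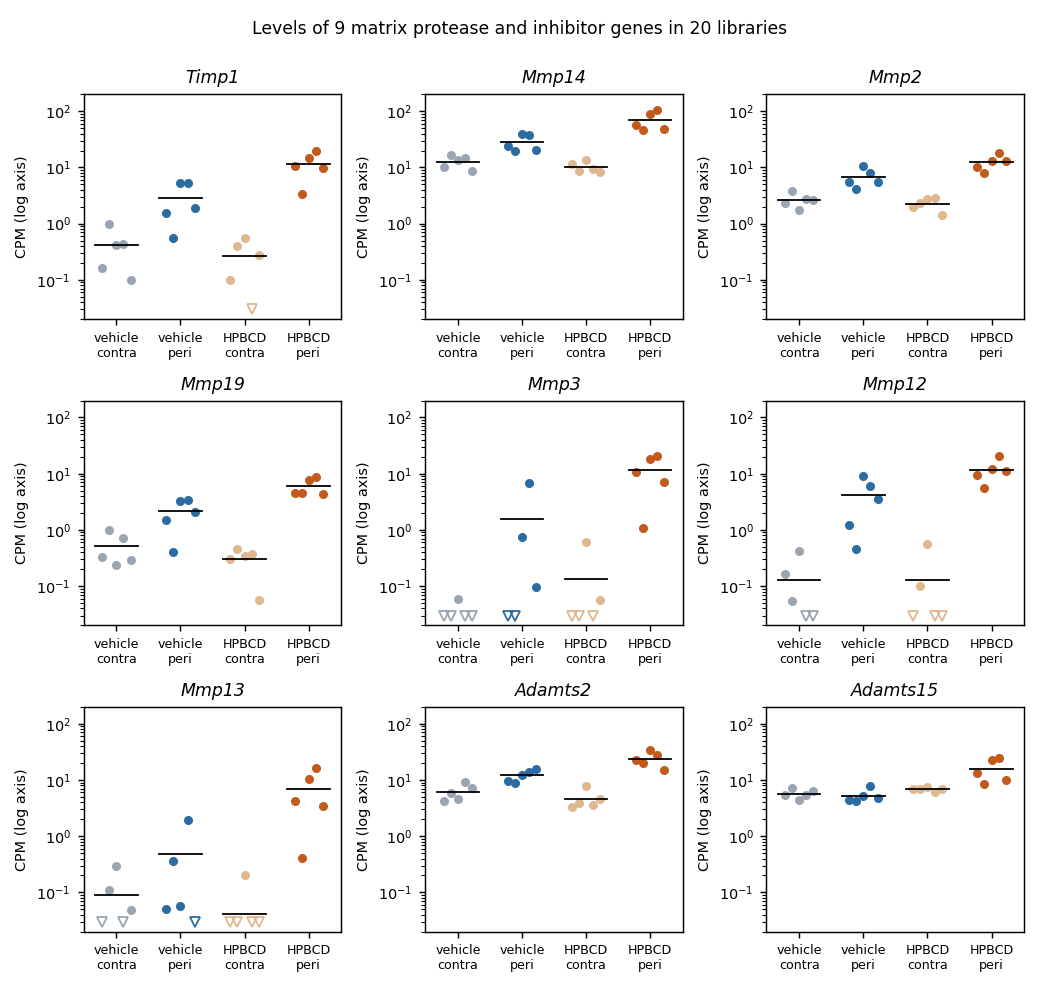
CPM (vertical, log axis) of 9 members in each library, by group (horizontal). Points are libraries, black lines are group means of 5 (that of Mmp3 in vehicle contralateral tissue lies below the axis), and open triangles are libraries at 0 drawn at the foot of the axis. Mmp3, Mmp12 and Mmp13 lie near 0 in contralateral tissue and reach 20.4, 20.6 and 16.6 CPM in single HPBCD peri-infarct libraries.

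Mmp19, a secreted enzyme that cuts basement membrane proteins, rose in both region comparisons. Its levels were 0.33, 0.981, 0.237, 0.707 and 0.295 CPM in vehicle contralateral and 1.53, 0.41, 3.33, 3.34 and 2.11 CPM in vehicle peri-infarct libraries. In HPBCD they were 0.299, 0.454, 0.345, 0.38 and 0.0564 CPM contralaterally and 4.58, 4.51, 7.8, 8.67 and 4.4 CPM in peri-infarct tissue. Vehicle peri-infarct library 2 lay within the contralateral range, whereas the HPBCD regions and the peri-infarct groups did not overlap. The vehicle log2 fold change of 2.04 ± 0.54 (SE, adjusted p = 0.0226) lost its call when the animal was a block (adjusted p = 0.0632) and without vehicle peri-infarct library 4 or vehicle contralateral library 3 or 5 (adjusted p up to 0.0597). In HPBCD it was 4.26 ± 0.36 (SE, adjusted p = 1.7e-06). The peri-infarct groups differed by 1.47 ± 0.43 (SE, adjusted p = 0.0343), a call that ended without vehicle peri-infarct library 1 or 5 or HPBCD peri-infarct library 3 or 4 (adjusted p up to 0.0844). Of its 3533 exon bases 789 are shared with Tmem198b on the other strand, so its counts are uncertain.

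Among the remaining Mmp genes, Mmp11, or stromelysin-3, had log2 fold changes of 2.21 ± 0.19 (SE, adjusted p = 1.74e-06) between regions in HPBCD and 1.10 ± 0.34 (SE, adjusted p = 0.0411) between the peri-infarct groups, the latter lost without vehicle peri-infarct library 1, 2 or 5 or HPBCD peri-infarct library 3, 4 or 5 (adjusted p up to 0.0968). Mmp23 rose by 1.20 ± 0.34 (SE, adjusted p = 0.00953) and by 1.30 ± 0.34 (SE, adjusted p = 0.0263) in the same comparisons, the latter lost without vehicle peri-infarct library 1, 2 or 5 or HPBCD peri-infarct library 3 or 4 (adjusted p up to 0.0723). Mmp28 rose between regions in HPBCD by 0.80 ± 0.29 (SE, adjusted p = 0.0339), which ended without HPBCD peri-infarct library 3 or 4 or HPBCD contralateral library 1, 3 or 5 (adjusted p up to 0.0951). Mmp21 reached at most 7 counts in a library.

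ADAMTS proteases that cut aggrecan and versican were called in HPBCD for all 7 genes, 6 higher and 1 lower, whereas in vehicle only Adamts9 of the 7 was called. Of all genes 54.6% were called in HPBCD and 20.2% in vehicle, so the vehicle count lies near the share of all genes. Adamts1, which cuts versican and aggrecan, stood at 12.1, 15.1, 15.2, 12.6 and 20 CPM in vehicle contralateral and 13.5, 12.7, 20.5, 21.8 and 20.6 CPM in vehicle peri-infarct libraries. HPBCD libraries held 11.4, 11.8, 15.2, 18 and 12.2 CPM contralaterally and 26.3, 25.6, 40.4, 46.5 and 25.9 CPM in peri-infarct tissue. The HPBCD peri-infarct libraries lay above all 15 others. Its log2 fold changes were 1.26 ± 0.19 (SE, adjusted p = 0.000135) between regions in HPBCD and 0.88 ± 0.21 (SE, adjusted p = 0.0211) between the peri-infarct groups. The latter call ended without vehicle peri-infarct library 1 or 2 or HPBCD peri-infarct library 3 (adjusted p up to 0.0593).

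Adamts15, a related enzyme, did not pass the test in vehicle, at 5.39, 7.08, 4.44, 5.33 and 6.45 CPM contralaterally and 4.49, 4.15, 5.2, 7.77 and 4.74 CPM in peri-infarct tissue. In HPBCD it stood at 6.84, 7.01, 7.65, 6.16 and 6.99 CPM contralaterally and 13.3, 8.41, 22.3, 24.7 and 10.1 CPM in peri-infarct tissue. All 5 HPBCD peri-infarct libraries were above the other 15, with libraries 3 and 4 highest. The log2 fold changes were -0.14 ± 0.19 (SE, adjusted p = 0.658) in vehicle, 1.18 ± 0.26 (SE, adjusted p = 0.00208) in HPBCD and 1.57 ± 0.30 (SE, adjusted p = 0.0132) between the peri-infarct groups, and the called values held without each library in turn.

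Adamts9, which cuts versican, was called in both region comparisons. Vehicle libraries held 2.47, 2.45, 2.01, 2.17 and 2.51 CPM contralaterally and 4.74, 3.23, 4.86, 5.09 and 4.26 CPM in peri-infarct tissue, and these did not overlap. HPBCD libraries held 2.5, 1.21, 2, 1.45 and 1.52 CPM contralaterally and 5.55, 11, 8.62, 5.91 and 4.55 CPM in peri-infarct tissue, without overlap. Its highest library was HPBCD peri-infarct 2, and the peri-infarct groups overlapped. The log2 fold change was 0.92 ± 0.16 (SE, adjusted p = 0.00452) in vehicle and 2.04 ± 0.29 (SE, adjusted p = 6.88e-05) in HPBCD. It shares 1381 exon bases with A730049H05Rik and 424 with Gm15737 on the other strand.

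Adamts20, another versican-cutting enzyme, held 9.07, 7.79, 13, 5.16 and 10.3 CPM in vehicle contralateral and 12.7, 10.9, 11.5, 9.94 and 14.4 CPM in vehicle peri-infarct libraries. In HPBCD it held 6.89, 7.41, 6.34, 5.93 and 8.96 CPM contralaterally and 15, 17.8, 17.5, 16.8 and 17.5 CPM in peri-infarct tissue. The vehicle regions overlapped, and the HPBCD peri-infarct libraries lay above all others in a narrow range. Its log2 fold changes were 1.25 ± 0.12 (SE, adjusted p = 4.01e-06) between regions in HPBCD and 0.50 ± 0.11 (SE, adjusted p = 0.0169) between the peri-infarct groups.

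Adamts8 ran the other way. It stood at 4.23, 5.18, 4.56, 4.19 and 4.08 CPM in vehicle contralateral and 4.49, 3.69, 4.29, 2.59 and 3.49 CPM in vehicle peri-infarct libraries, which overlapped. Its HPBCD levels were 4.94, 5.9, 5.17, 10 and 5.64 CPM contralaterally and 3.03, 4.76, 2.62, 0.993 and 2.73 CPM in peri-infarct tissue, which did not. The log2 fold change was -1.14 ± 0.33 (SE, adjusted p = 0.0104) in HPBCD and -0.27 ± 0.17 (SE, adjusted p = 0.285) in vehicle, not called. HPBCD contralateral library 4 was highest at 10 CPM. It is also the library with the most reads without a feature or ambiguous, whose part in the result was not tested, and the call held without it (adjusted p = 0.0316). Adamts4 and Adamts5, known as aggrecanases, rose between regions in HPBCD by 1.01 ± 0.13 (SE, adjusted p = 4.18e-05) and 1.67 ± 0.25 (SE, adjusted p = 0.000113).

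Adamts2, which removes the amino-terminal propeptide of fibrillar procollagens, was among the 3 members called in 4 of the 5 comparisons, with Mmp14 and Adamtsl1. Vehicle values were 4.29, 5.88, 4.62, 9.24 and 7.09 CPM contralaterally and 9.48, 8.92, 12.1, 13.8 and 15.8 CPM in peri-infarct tissue. HPBCD values were 3.29, 3.88, 7.79, 3.58 and 4.51 CPM contralaterally and 22.7, 19.8, 33.8, 28.1 and 14.9 CPM in peri-infarct tissue. Vehicle contralateral library 4 lay above vehicle peri-infarct library 2, and the HPBCD regions did not overlap. Its log2 fold changes were 0.93 ± 0.22 (SE, adjusted p = 0.0147) in vehicle, 2.38 ± 0.26 (SE, adjusted p = 1.05e-05) in HPBCD and 0.98 ± 0.22 (SE, adjusted p = 0.0176) between the peri-infarct groups, and each held without each library in turn. Adamts3, a propeptidase that also activates Vegfc, rose between regions in HPBCD by 0.65 ± 0.18 (SE, adjusted p = 0.00754). Adamts14, the third propeptidase, reached at most 17 counts and did not pass the filter of edgeR in any comparison. DESeq2 called it higher in peri-infarct tissue in vehicle (adjusted p = 0.0124) and in HPBCD (adjusted p = 0.000641), and the regions did not overlap in either.

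Adamts17, whose known partner is fibrillin, was lower in HPBCD peri-infarct tissue. It held 3.57, 4.69, 3.26, 4.62 and 5.12 CPM in vehicle contralateral and 3.77, 2.31, 3.11, 3.49 and 4.16 CPM in vehicle peri-infarct libraries. In HPBCD it held 4.39, 5.24, 5.17, 3.5 and 5.07 CPM contralaterally and 2.48, 2.69, 2.57, 1.38 and 1.67 CPM in peri-infarct tissue, without overlap. The log2 fold change was -1.11 ± 0.22 (SE, adjusted p = 0.000807) in HPBCD and -0.35 ± 0.19 (SE, adjusted p = 0.22) in vehicle, not called. Adamts6 and Adamts16 rose between regions in HPBCD by 1.46 ± 0.27 (SE, adjusted p = 0.000564) and 1.12 ± 0.32 (SE, adjusted p = 0.00902). Adamts10 rose by 0.61 ± 0.24 (SE, adjusted p = 0.045), a call that ended without HPBCD peri-infarct library 3 or 4 or HPBCD contralateral library 2, 3 or 4 (adjusted p up to 0.13) and with the animal as a block (adjusted p = 0.0941). Adamts13, the enzyme that trims von Willebrand factor, was called in no comparison. DESeq2 called it lower between the peri-infarct groups (adjusted p = 0.0381, against 0.0603 by edgeR). Adamts18 was not called, but between regions in vehicle (adjusted p = 0.099) it was called with the animal as a block (adjusted p = 0.0337) and in 1 of 10 leave-one-out fits. Adamts7 passed the filter of edgeR only between the peri-infarct groups and in the interaction, and was called in neither, whereas DESeq2 called it higher between regions in HPBCD (adjusted p = 0.000296). Adamts12 and Adamts19 had at most 23 and 3 counts in a library and did not pass that filter. DESeq2 called Adamts12 higher between regions in HPBCD (adjusted p = 0.00386) and between the peri-infarct groups (adjusted p = 0.00138), although the groups overlapped in both.

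The ADAMTS-like genes moved in both directions. Adamtsl3 stood at 1.65, 6.7, 2.31, 2.01 and 2.31 CPM in vehicle contralateral and 8.21, 2.97, 18.8, 13.5 and 8.23 CPM in vehicle peri-infarct libraries. HPBCD libraries held 1.7, 2.32, 5.58, 1.07 and 2.03 CPM contralaterally and 16.5, 21.3, 29.9, 35.8 and 16.4 CPM in peri-infarct tissue. Vehicle contralateral library 2 and HPBCD contralateral library 3 were each highest in their group. In vehicle the log2 fold change was 1.77 ± 0.49 (SE, adjusted p = 0.0256), lost with the animal as a block (adjusted p = 0.0631) and without vehicle peri-infarct library 3 or 4 or vehicle contralateral library 3 or 5 (adjusted p up to 0.064). In HPBCD it was 3.25 ± 0.37 (SE, adjusted p = 1.37e-05), and without HPBCD contralateral library 3 it was still called. Between the peri-infarct groups it was 1.21 ± 0.40 (SE, adjusted p = 0.05), just under the threshold before rounding and lost without vehicle peri-infarct library 1, 2, 4 or 5 or HPBCD peri-infarct library 3, 4 or 5 (adjusted p up to 0.117).

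Adamtsl1 held 8.47, 4.09, 8.06, 5.65 and 6.64 CPM in vehicle contralateral and 10.5, 7.69, 11.2, 11.4 and 12.7 CPM in vehicle peri-infarct libraries, which overlapped. In HPBCD it held 4.79, 6.86, 6.14, 8.14 and 3.72 CPM contralaterally and 16.9, 16.9, 16.3, 21.1 and 18.2 CPM in peri-infarct tissue, above all 15 other libraries. Its log2 fold change was 0.69 ± 0.20 (SE, adjusted p = 0.0298) in vehicle, lost without vehicle peri-infarct library 1, 3, 4 or 5 or vehicle contralateral library 4 or 5 (adjusted p up to 0.0677), and 1.60 ± 0.18 (SE, adjusted p = 1.29e-05) in HPBCD. The peri-infarct groups differed by 0.73 ± 0.13 (SE, adjusted p = 0.0128), which held without each library in turn.

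Adamtsl2, which binds fibrillin and latent TGF-β binding protein, was the one ADAMTS-like gene called lower. Vehicle libraries held 5.22, 8.99, 8.29, 8.53 and 7.63 CPM contralaterally and 6.17, 8.1, 4.63, 6.83 and 6.17 CPM in peri-infarct tissue. HPBCD libraries held 8.88, 7.97, 5.45, 5.55 and 5.98 CPM contralaterally and 4.58, 2.99, 2.91, 3.48 and 3.59 CPM in peri-infarct tissue, below every other library. Its log2 fold change was -0.95 ± 0.19 (SE, adjusted p = 0.000869) in HPBCD and -0.87 ± 0.18 (SE, adjusted p = 0.0148) between the peri-infarct groups, and both held without each library in turn. Adamtsl4 rose between regions in HPBCD by 1.74 ± 0.14 (SE, adjusted p = 1.26e-06) and between the peri-infarct groups by 0.81 ± 0.24 (SE, adjusted p = 0.0363), the latter lost without vehicle peri-infarct library 1 or 4 or HPBCD peri-infarct library 3, 4 or 5 (adjusted p up to 0.08). With the animal as a block it was also called between regions in vehicle (adjusted p = 0.0489). Adamtsl5 was called in no comparison by edgeR, whereas DESeq2 called it lower between regions in vehicle (adjusted p = 0.0326) and higher between the peri-infarct groups (adjusted p = 0.0183, against 0.0505 by edgeR).

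The interaction separated 8 of 39 members, 5 of them among the 7 proteoglycan-cutting ADAMTS genes, beside 9.41% of all genes (5.03% positive). In HPBCD the regions lay farther apart than in vehicle, by a log2 value of 1.60 ± 0.36 (SE, adjusted p = 0.0177) for Mmp14 and 1.43 ± 0.37 (SE, adjusted p = 0.0258) for Adamts2. For the proteoglycan-cutting genes it was 1.31 ± 0.35 (SE, adjusted p = 0.0296) for Adamts15, 1.28 ± 0.37 (SE, adjusted p = 0.0377) for Adamts5 and 1.10 ± 0.33 (SE, adjusted p = 0.0414) for Adamts9. It was 1.02 ± 0.29 (SE, adjusted p = 0.0335) for Adamts1, 0.85 ± 0.25 (SE, adjusted p = 0.0368) for Adamts20 and 0.90 ± 0.28 (SE, adjusted p = 0.0476) for Adamtsl1. Of the TIMPs 0 of 4 were called in this test, with the smallest adjusted p at Timp3, 0.61 ± 0.21 (SE, adjusted p = 0.068). With the animal as a block, Timp3 (adjusted p = 0.0412), Adamts4 (adjusted p = 0.0245) and Adamtsl4 (adjusted p = 0.0312) were called as well. DESeq2 called 15 of 48 members, 14 positive and 1 negative, beside 2504 of 30146 genes. Beyond the 8 above, its positive calls were Timp3 (adjusted p = 0.0465), Adamtsl4 (0.0455), Mmp2 (0.0317), Mmp11 (0.0252), Mmp19 (0.0187) and Adamts6 (0.0446). The negative call was Adamts17 (adjusted p = 0.0483).

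Only Mmp14 kept its interaction call without each of the 20 libraries in turn. Adamts2 kept it in 16 of the 20 fits, Adamts15 in 13, Adamts1 in 10, Adamts20 in 9, Adamts5 and Adamts9 in 8 each and Adamtsl1 in 7. Only 1 call was left without vehicle peri-infarct library 2, HPBCD peri-infarct library 3 or HPBCD contralateral library 2. There were 2 without vehicle peri-infarct library 1 or HPBCD peri-infarct library 4. There were 3 without vehicle contralateral library 3 or HPBCD contralateral library 4, and 4 without vehicle contralateral library 1 or 5 or HPBCD contralateral library 1 or 5. There were 5 without vehicle contralateral library 2 or HPBCD contralateral library 3, 14 without vehicle peri-infarct library 3 and 17 without HPBCD peri-infarct library 2. The share of all genes called moved with these counts, from 3.12% without vehicle peri-infarct library 2 to 18.4% without HPBCD peri-infarct library 2. Adamts9 lost the interaction call with the animal as a block (adjusted p = 0.0661).

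Levels per kilobase of exon allow genes to be set beside each other. In vehicle contralateral tissue the order began with Timp2 at 58.2 CPM per kilobase and Mmp17 at 31.6. In HPBCD peri-infarct tissue Timp2 stood at 128 CPM per kilobase and Mmp17 at 20.5. Timp3 (13.6), Timp1 (13.1), Mmp14 (11.6) and Adamts4 (11.3) followed. Timp1 had stood at 0.301 CPM per kilobase in HPBCD contralateral tissue.

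Genes that activate, inhibit or clear these proteases were taken from a list of 19, of which 16 were tested. In vehicle 8 of the 16 were higher in peri-infarct tissue and 0 lower. In HPBCD 15 were higher and 0 lower, and between the peri-infarct groups 3 were higher. The shares of all genes called higher were 10.5%, 30.3% and 12.4%, and the last of these counts is close to its share. The 3 were Plat, the tissue plasminogen activator, Furin, a convertase that activates membrane-type enzymes, and Thbs2, a matrix protein that aids Mmp2 clearance. Their log2 differences were 1.06 ± 0.20 (adjusted p = 0.0128), 0.34 ± 0.10 (adjusted p = 0.0389) and 1.38 ± 0.26 (adjusted p = 0.0128). A2m, the general protease trap, rose from a mean of 0.548 to 46.3 CPM in vehicle and from 0.731 to 105 CPM in HPBCD. Bsg, an inducer of Mmp genes, was called in neither region comparison.

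Matrix substrates were taken from a list of 20 genes, all tested. In vehicle 4 were higher in peri-infarct tissue (Vcan, Tnc, Lamb1 and Dag1) and 0 were lower. In HPBCD 13 were higher and 2 lower, the lower being Acan and Ncan, which encode the proteoglycans aggrecan and neurocan. Between the peri-infarct groups 9 were higher and 1, Ncan, was lower. These counts stand beside 10.5%, 30.3% and 12.4% of all genes called higher and 9.7%, 24.3% and 9.0% called lower. Between the peri-infarct groups the collagen genes Col1a1, Col1a2 and Col3a1 were higher in HPBCD by log2 values of 2.32 ± 0.51 (adjusted p = 0.0166), 2.49 ± 0.49 (adjusted p = 0.0136) and 2.83 ± 0.62 (adjusted p = 0.0169).

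Markers of cell types moved with these genes. The summed level of 8 fibroblast and meningeal markers, which include those 3 collagens, was 122, 60.2, 136, 315 and 78.6 CPM in vehicle peri-infarct and 556, 391, 1060, 1080 and 476 CPM in HPBCD peri-infarct libraries 1 to 5. It was 23.3 to 178 CPM in vehicle contralateral and 38.9 to 136 CPM in HPBCD contralateral libraries. All 8 were called higher between the peri-infarct groups and all 8 between regions in HPBCD, beside 12.4% and 30.3% of all genes called higher. Between regions in vehicle 1 of 8 was called higher, near the 10.5% of all genes. The highest sums were in vehicle library 4 and HPBCD libraries 3 and 4, and the same libraries were highest in their groups for Mmp3 and Mmp13. In HPBCD this was not particular to the fibroblast list. Libraries 3 and 4 there also had the highest microglia and macrophage sums (1230 and 1540 CPM) and the lowest neuron sums (3210 and 2280 CPM). In vehicle the highest microglia and macrophage sum was in library 3 (1080 CPM).

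The 8 microglia and macrophage markers summed to 509, 365, 1080, 760 and 560 CPM in vehicle peri-infarct and 932, 771, 1230, 1540 and 1050 CPM in HPBCD peri-infarct libraries. Contralateral sums were 210 to 257 CPM over both treatments. Of the 8, 7 were called higher between regions in vehicle, 8 in HPBCD and 1 between the peri-infarct groups. The shares of all genes called higher were 10.5%, 30.3% and 12.4%, so the last count lies near its share. Astrocyte markers, 6 in number, summed to 2320 to 2780 CPM in all contralateral, 3020 to 6510 CPM in vehicle peri-infarct and 5300 to 8580 CPM in HPBCD peri-infarct libraries. Of these 6, 4 were called higher between regions in vehicle, 4 in HPBCD and 1 between the peri-infarct groups, beside the same shares.

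**Figure D5:**
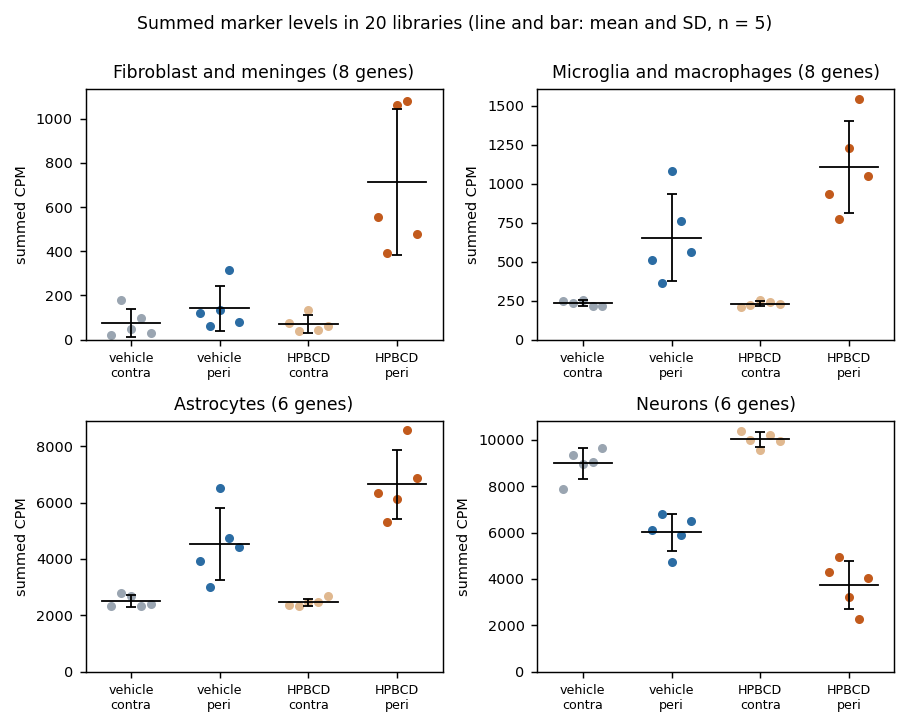
Summed CPM (vertical, from 0) of marker lists in each library, by group (horizontal). Points are libraries, lines and bars are the mean and SD of 5. Fibroblast and meningeal sums lie at 391 to 1080 CPM in HPBCD peri-infarct tissue and at 315 CPM or less elsewhere, and neuronal sums have their lowest mean there.

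Oligodendrocyte markers summed to 4470 to 11600 CPM in vehicle contralateral, 6030 to 14500 CPM in vehicle peri-infarct, 5490 to 6930 CPM in HPBCD contralateral and 12400 to 19100 CPM in HPBCD peri-infarct libraries. Of these 6 markers, 0 were called higher between regions in vehicle, 6 in HPBCD and 1 between the peri-infarct groups. The shares of all genes called higher were 10.5%, 30.3% and 12.4%. Striatal markers were 231 to 1230 CPM in vehicle and 367 to 1150 CPM in HPBCD peri-infarct libraries. Ependymal markers were 18.4 to 47.7 CPM in vehicle and 70.4 to 139 CPM in HPBCD peri-infarct libraries, against 4.08 to 33.8 CPM and 5.79 to 9.44 CPM contralaterally. Choroid plexus markers were 6.56 to 76.4 CPM in vehicle and 27.1 to 687 CPM in HPBCD peri-infarct libraries. T lymphocyte markers were 0.769 to 8.15 CPM and 4.5 to 7.67 CPM in these groups, against at most 1.26 CPM contralaterally. Pericyte and smooth muscle markers were 116 to 173 CPM and 173 to 197 CPM, and markers of oligodendrocyte precursors 142 to 204 CPM and 155 to 203 CPM. Endothelial markers summed to 163 to 274 CPM and 189 to 291 CPM in the same groups. The part of any of these cell types, and of the tissue cut, in the differences between member genes was not tested.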

How the data were processed

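Poly(A) RNA from 20 libraries, 4 groups of 5 by sample title, was sequenced as read pairs after stranded preparation. The authors trimmed the reads with Trimmomatic 0.32, aligned them with STAR 2.5.2b to GRCm38 and counted with htseq-count. The deposited values are raw counts per Ensembl gene, 1 table per library, not normalized. The annotation release and strand option are not given in the sources used here. Symbols and coordinates came from GENCODE on GRCm38, which held 45229 of 46078 gene identifiers (98.16%) and 99.933% of counts. The 5 closing lines that name no gene were left out (4.39% to 9.503% without a feature, 3.941% to 8.03% ambiguous, 16.581% to 24.298% not unique).

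Counts were tested with the quasi-likelihood test of edgeR 4.0.16 in R 4.3.3, with TMM factors, filterByExpr and Benjamini-Hochberg adjustment over all genes tested. Pairs of groups used their 10 libraries and the interaction all 20. The SE is the log2 fold change divided by the square root of F. Alternatives were DESeq2 1.42.0, RLE scaling, no filter, a filter of 10 counts in 5 libraries, all 4 groups in 1 fit, the animal as a block and leaving out each library. The tests were run first on simulated data. Members and lists were chosen with earlier results of these data known. Values in every library are given for the TIMPs, for members called in at least 3 of the 5 comparisons, for the 3 largest called rises and falls in each comparison (mean of at least 0.5 CPM) and for Mmp2, Mmp3, Mmp8 and Mmp14, which the study names. No pair of tables held identical counts. Same-number libraries of the 2 regions share an identifier in their table names, taken as the animal, which makes the pairing. Over 16758 genes, r between their deviations averaged 0.112 in the 10 pairs and passed 0.1 in 5. Between treatments the number is a name only.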

Additional observations from a re-analysis of the deposited data

Results flagged for a closer look

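Single libraries stood far above the other 4 of their group in 9 of 88 sets of 5 values of the named members. By chance this measure marks about 1 set in 20 only where values are normally distributed. Several of these sets lie near 0 CPM, so 9 of 88 cannot be read against that rate. Vehicle peri-infarct library 4 held 1.98 CPM of Mmp13, 6.88 CPM of Mmp3 and 7.77 CPM of Adamts15, where the other 4 reached at most 0.359, 0.734 and 5.2 CPM. The same library had the highest fibroblast and meningeal marker sum of its group (315 CPM). HPBCD contralateral library 3, which held 639 CPM of choroid plexus markers, had 0.62 CPM of Mmp3, 0.552 CPM of Mmp12, 7.79 CPM of Adamts2 and 5.58 CPM of Adamtsl3, where the others reached at most 0.0564, 0.101, 4.51 and 2.32 CPM. HPBCD contralateral library 4 held 10 CPM of Adamts8 (others at most 5.9), and was also the library with the most reads without a feature (9.503%) or ambiguous (8.03%), whose part was not tested. Vehicle contralateral library 2 held 6.7 CPM of Adamtsl3 (others at most 2.31). It also had the highest fibroblast and meningeal sum among contralateral libraries, 178 CPM. The part of these markers in the values was not tested.

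The difference between regions differed between treatments, by the interaction test of edgeR, for 8 of 39 members, beside 9.41% of all genes. The log2 values were 1.60 for Mmp14, 1.02 for Adamts1, 1.28 for Adamts5, 1.10 for Adamts9, 1.31 for Adamts15, 0.85 for Adamts20, 1.43 for Adamts2 and 0.90 for Adamtsl1.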

How the results depend on the processing

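Counts of members called kept within 1.5 times under all alternatives tried in both region comparisons and stayed at 0 in the contralateral one. Leaving out 1 library gave 7 to 13 members in the vehicle region comparison, 27 to 31 in HPBCD, 6 to 23 between the peri-infarct groups, 0 to 0 contralaterally and 1 to 17 in the interaction. Between the peri-infarct groups DESeq2 called 26, beside 4719 of 28467 genes. In the interaction DESeq2 called 15 (beside 2504 of 30146 genes) and the fit without a filter 4 (beside 1123 of 30146), both with more genes tested. Of 50 called differences of members given in every library, 0 changed direction under any alternative. DESeq2 and RLE scaling kept all 50, the block kept 47, the filter of 10 counts in 5 libraries 48 and no filter 46. Leaving out libraries ended 111 of 570 calls, and the cause was not tested. The replicate block called 10, 29, 23, 0 and 10 members in the 5 comparisons. These stood beside 3053 of 15801, 8860 of 16047, 4375 of 16224, 1 of 15469 and 1830 of 16758 genes. The block ended the calls of Mmp19 and Adamtsl3 in vehicle, Adamts10 in HPBCD and Adamts9 in the interaction, and no others between regions or in the interaction. It added calls of Adamts18 and Adamtsl4 in vehicle, Mmp24 in HPBCD and Timp3, Adamts4 and Adamtsl4 in the interaction. Across treatments its numbers pair no animals. RLE scaling shifted the median log2 value by -0.028 to 0.0022. Low counts kept Mmp3, Mmp12 and Mmp13 between regions in vehicle, Mmp13 between regions in HPBCD and Mmp8 throughout from passing the filter of edgeR.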
